A study of Oryza sativa with 12 samples.

Results

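The difference between the drought responses of PSARK::IPT and wild-type rice flag leaves was measured as (stressed minus watered PSARK::IPT) minus (stressed minus watered wild type). It was computed for 15303 probe sets of the Affymetrix rice array, those with a mean of 5 or more over all 12 arrays, out of 57381 deposited probe sets, of which 187 were controls or reporters. The probe sets were ranked by limma's moderated statistic for this difference, and the 200 highest and 200 lowest were described. The ranking itself chose these members, so their differences are given as a description, with no further test.

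Flag leaves were taken from plants at 10 weeks of age, before flowering, in a greenhouse. The 4 groups were watered wild type, wild type left without water for 3 days, watered PSARK::IPT, and PSARK::IPT left without water for 3 days, with 3 arrays each. The labels call each array a separate biological replicate. In PSARK::IPT the SARK promoter, active in maturing and stressed tissue, drives isopentenyltransferase, so the transgene's own activity can differ between watered and stressed leaves. The array titles call the transgenic plants 5T, without saying whether 5T is 1 line or several. The figures write the groups as WT_watered, WT_stressed, IPT_watered and IPT_stressed.

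Isopentenyltransferase makes the precursors of cytokinins, hormones that delay the ageing of leaves and keep chloroplasts and protein synthesis active. Water deficit works largely through abscisic acid, which closes stomata and switches on protective genes, and drought-stressed leaves usually slow growth, protein synthesis and sugar export. A positive difference means that a transcript went further up, or less far down, under stress in PSARK::IPT than in wild type, and a negative difference the reverse. All values are log2 RMA values or differences of them. A difference of 1 is a factor of 2. Levels were not compared between genes, since each probe set has its own response.

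No probe set passed a Benjamini-Hochberg adjusted p under 0.05 in limma (0 of 15303, 0%), and the smallest adjusted p was 0.299. At an unadjusted p under 0.05 the difference was positive for 2148 probe sets (14%) and negative for 148 (0.967%). With 1 probe set per gene these were 1640 (15.5%) and 32 (0.303%) of 10547 genes. The median difference over the tested probe sets was 0.32, and 78.6% of them had a positive difference. The count at an unadjusted p under 0.05 was 1240 without stressed PSARK::IPT replicate 3, 1383 without stressed PSARK::IPT replicate 1, and 1028 after the arrays were given equal medians, against 2296 as deposited.

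The arrays themselves differed along the same lines. The median of the tested probe sets was 6.86 ± 0.05 (SD, n = 3) in watered wild type, 6.56 ± 0.07 in stressed wild type, 7.04 ± 0.03 in watered PSARK::IPT and 7.10 ± 0.03 in stressed PSARK::IPT. These medians alone give a difference of 0.36. The 3′ minus 5′ signal of GAPDH, a measure in which intact RNA reads low, was 5.99 ± 1.06, 6.90 ± 0.50, 3.64 ± 0.17 and 3.86 ± 0.48 in the same order. Spike-in controls of the Bio set averaged 10.6 ± 0.21, 11.5 ± 0.29, 8.09 ± 0.23 and 8.09 ± 0.28. The part of RNA quality and labelled amount in the differences below was not tested beyond the alternatives given.

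**Figure D1:**
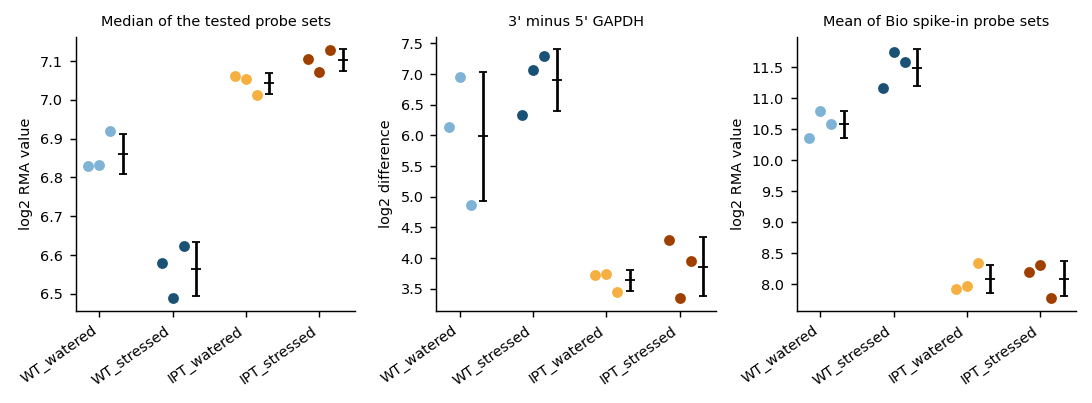
Each point is 1 array. The panels show the median log2 RMA value of the 15303 tested probe sets, the 3′ minus 5′ difference of the GAPDH control probe sets, and the mean log2 RMA value of the Bio spike-in probe sets, by group, with bars for the mean ± SD of 3 arrays. The stressed wild-type arrays have the lowest medians and the highest spike-in values, and both PSARK::IPT groups have a lower GAPDH difference than both wild-type groups.

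The labels were checked against 2 reporter probe sets, designed for foreign genes of the kind that transformation constructs carry. The K01193 reporter read 3.48 ± 2.21 in watered wild type, 8.98 ± 0.24 in stressed wild type, 2.08 ± 0.08 in watered PSARK::IPT and 10.16 ± 0.27 in stressed PSARK::IPT. The AF292559 reporter read 2.61 ± 0.60, 7.68 ± 0.60, 2.11 ± 0.13 and 7.97 ± 0.46. Both followed the water label and not the genotype label. Group names therefore stand for the arrays so labelled. The difference of stress effects adds stressed PSARK::IPT to watered wild type and subtracts the other pair of groups, so it takes the same value if the names of stressed wild type and watered PSARK::IPT were exchanged. The separate stress effects of each genotype do not have that property.

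Of 5 leaf markers listed, 2 names were found, for 3 genes, of which 2 had a mean of 5 or more. OsrbcS, the small subunit of Rubisco, and OsrcaA1, Rubisco activase, averaged 13.19 and 13.11 over the 12 arrays. The third gene, RBCS1, averaged 3.20. Of 18 panicle and floral markers 4 had a mean of 5 or more, as did 2 of 8 anther markers and 7 of 30 genes of dividing cells. The mean over the panicle list lay between 3.56 and 3.72 in the 4 groups, over the anther list between 3.59 and 3.75 and over the dividing-cell list between 3.61 and 3.73. Bulk leaves cannot separate fewer cells of a type from less RNA per cell.

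The difference depended on signal level. Its median was 0.34 for probe sets with a mean between 5 and 6, 0.38 between 6 and 7, 0.26 between 8 and 9 and 0.15 at 10 or more. Below the minimum it was 0.03 between 4 and 5 and −0.16 below 3, where 21971 probe sets lay. Over all 57194 probe sets, controls and reporters left out, the median was −0.066.

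**Figure D2:**
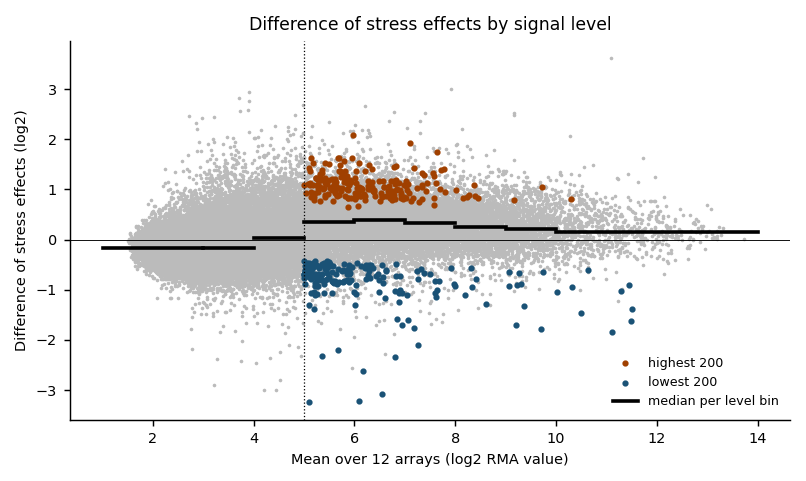
Difference of stress effects (log2, vertical) against the mean log2 RMA value over 12 arrays (horizontal) for all probe sets except controls and reporters. The dotted line marks the minimum mean of 5, the black steps are the median per level bin, and the highest 200 and lowest 200 are coloured; the steps lie above 0 at every level above 5 and below 0 under 4.

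The highest 200 had differences between 0.65 and 2.08, with a median of 1.04 and an adjusted p of 0.299 throughout. Most had a lower mean in stressed than in watered wild type and a higher mean in stressed than in watered PSARK::IPT. This sign pattern was seen in 184 of the 200, against 41.4% of all tested probe sets, while 15 had a lower and 1 a higher stressed mean in both genotypes. The medians over the 200 were 6.22 in watered wild type, 5.46 in stressed wild type, 6.41 in watered PSARK::IPT and 6.63 in stressed PSARK::IPT. Stressed wild type was the lowest group for 180 of them, and stressed PSARK::IPT the highest for 161. All 3 stressed arrays lay below all 3 watered arrays in wild type and above them in PSARK::IPT for 88 of the 200. Over all tested probe sets this held for 304 (1.99%). Taken singly, stressed wild-type arrays were all below the watered ones for 164 of the 200 (18.9% of all tested), and stressed PSARK::IPT arrays all above for 124 (16.3%). The ranking used these same arrays, so such shares describe the members of either end and support nothing.

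The lowest 200 had differences between −3.25 and −0.43, with a median of −0.72 and adjusted p-values from 0.299 to 0.361. Of these, 173 had a higher stressed mean in wild type and a lower one in PSARK::IPT, a sign pattern seen in 6.46% of all tested probe sets. Their medians were 5.73 in watered wild type, 6.15 in stressed wild type, 5.69 in watered PSARK::IPT and 5.31 in stressed PSARK::IPT. All 3 stressed arrays were above the watered ones in wild type and below them in PSARK::IPT for 23 of the 200, which were all of the 23 such probe sets among those tested (0.15%). Stressed wild-type arrays were all above the watered ones for 78 of the 200 (1.6% of all tested), and stressed PSARK::IPT arrays all below for 107 (10%).

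The 2 ends differed in annotation. Of the highest 200, 84% were tied to exactly 1 gene, of the lowest 200 only 31.5%, and of all tested probe sets 77%. Probe sets of the OsAffx series without a named gene made up 56.5% of the lowest and 7.5% of the highest, against 9.33% overall. Genes of the highest set lay on all 12 chromosomes, with the most, 37, on chromosome 3, which also had the most tested genes, 1573. Chromosome 1, with 1528 tested genes, held 21. Over all tested genes the highest set held 166 of 10547. A cause of the uneven spread was not tested.

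Both ends were also described by the average of the genotype effect over both water conditions, a contrast that the ranking did not use, although its statistic shares the residual spread of each probe set with the ranking. It was called higher in PSARK::IPT at an adjusted p under 0.05 for 146 of the highest 200 (73%) and lower for 6, where 44.9% of all tested probe sets were called higher and 10.1% lower. Among the lowest 200 it was called lower for 103 (51.5%) and higher for 29. The average stress effect was called lower for 6 of the highest 200 and for 0 of the lowest, against 0.248% of all tested probe sets, and called higher for 0 of either end, against 0.288%. These shares hold for the labels as given. If stressed wild type and watered PSARK::IPT were exchanged, the average genotype effect and the average stress effect would trade places, and the shares with them.

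At the limit of the ranking, LOC4331982 at rank 200 from the top had a difference of 1.03, and RGP1 at rank 201 one of 0.70. From the bottom, OsAffx.8310.1.A1_at at rank 200 had −0.55 and LOC4339109 at rank 201 had −0.72. Second probe sets gave another reading for 23 genes of the highest set and all 23 were positive, with a median of 0.67, where 78.6% of all tested probe sets were positive with a median of 0.32. For the lowest set 16 genes had one, of which 11 were negative and 5 positive, with a median of −0.24. Some genes had a second probe set that the ranking itself had placed at the same end. These were OSK24 and LOC4331291 at the top, and LOC4332796, LOC4339108 and LOC9269178 at the bottom. The second readings also came from the same arrays as the ranking. The counts therefore describe the members and are no independent check of them.

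**Figure D3:**
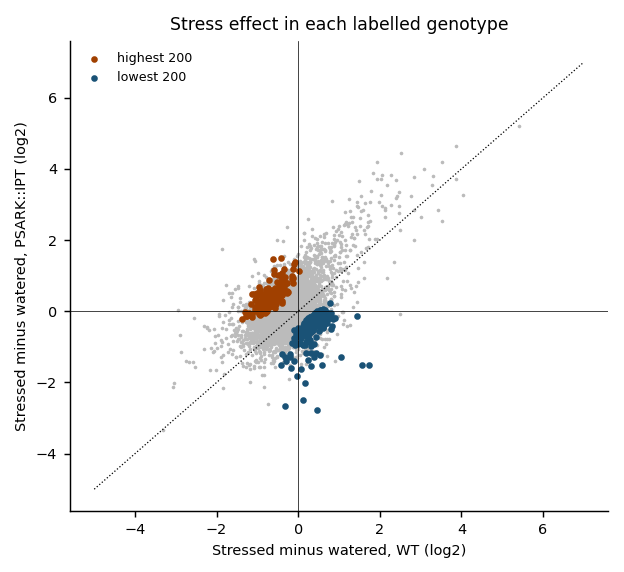
Stress effect in PSARK::IPT (stressed minus watered, log2, vertical) against the stress effect in wild type (horizontal), 1 point per tested probe set. The dotted line marks equal effects. The highest 200 lie mostly where wild type is negative and PSARK::IPT positive (184 of 200), and the lowest 200 mostly where the signs are opposite to that (173 of 200).

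Of the highest 200 probe sets, 27 had a gene name. These named genes are given by their known roles, without any claim that a role was enriched. Equal array medians lowered the difference of every gene by 0.36. NH3, a rice homologue of the salicylate-pathway coactivator NPR1, read 7.71, 7.87 and 8.04 in watered wild type, 7.74, 7.83 and 7.78 in stressed wild type, 5.85, 5.93 and 5.78 in watered PSARK::IPT and 7.69, 6.85 and 7.0 in stressed PSARK::IPT. Watered PSARK::IPT was the lowest group, and the stressed PSARK::IPT arrays lay between it and all wild-type arrays. The wild-type groups overlapped. The stress effect was −0.09 in wild type and 1.33 in PSARK::IPT, a difference of 1.42 (SE 0.29).

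The SnRK1-type kinases OSK24 and OSK3, energy sensors that act when sugars run short, had a different shape. OSK24 read 6.69, 6.47 and 6.74 in watered wild type, 6.06, 5.92 and 5.57 in stressed wild type, 7.51, 7.88 and 7.60 in watered PSARK::IPT and 7.99, 7.88 and 7.98 in stressed PSARK::IPT. Stressed wild type lay below every other array, and the PSARK::IPT groups touched at 7.88. The difference was 1.07 (SE 0.24), and 2 other probe sets of the gene gave 0.69 and 1.23. The main set and the one at 1.23 end in _x_at and can match several sequences. The one at 1.23 shares the root of its name, Os.338.1.S2, with the OSK3 set, so the readings of OSK24 and OSK3 may not be separate. OSK3 averaged 5.49 ± 0.26, 4.67 ± 0.32, 6.54 ± 0.29 and 6.92 ± 0.09 in watered wild type, stressed wild type, watered PSARK::IPT and stressed PSARK::IPT, a difference of 1.19 (SE 0.30). Its second probe set gave 1.11.

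CDPK5, a calcium-dependent protein kinase, averaged 5.12 ± 0.08, 4.61 ± 0.52, 5.65 ± 0.06 and 6.32 ± 0.09 in that order, with no overlap between watered and stressed arrays in either genotype and a difference of 1.17 (SE 0.31). CDKF-1, a kinase that activates cyclin-dependent kinases, went from 6.64 ± 0.06 to 6.25 ± 0.07 in wild type and from 6.72 ± 0.29 to 7.17 ± 0.13 in PSARK::IPT, also without overlap. ARF9, an auxin response factor, was low in stressed wild type alone: 7.52, 7.37 and 7.56 watered and 6.19, 6.61 and 6.26 stressed, against 7.46, 7.66 and 7.74 watered and 7.36, 7.96 and 7.26 stressed in PSARK::IPT. Its difference was 1.04 (SE 0.29).

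Protein folding and glycosylation in the endoplasmic reticulum were represented by OsPDIL5-1 and STT3-B. OsPDIL5-1, a protein disulfide isomerase, read 7.81, 7.60 and 7.66 in watered wild type, 7.54, 7.32 and 6.96 in stressed wild type, 7.32, 7.35 and 7.54 in watered PSARK::IPT and 8.22, 7.91 and 8.23 in stressed PSARK::IPT. The groups did not overlap within either genotype, and the stress effects were −0.41 and 0.72 (difference 1.13, SE 0.25). STT3-B, a catalytic subunit of the oligosaccharyl transferase that attaches N-glycans, averaged 7.73 ± 0.13, 7.43 ± 0.28, 6.72 ± 0.06 and 7.51 ± 0.33 in watered wild type, stressed wild type, watered PSARK::IPT and stressed PSARK::IPT. As for NH3, watered PSARK::IPT was the lowest group, and the difference was 1.09 (SE 0.28).

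In metabolism, HCT1, a hydroxycinnamoyltransferase of the phenylpropanoid pathway, read 6.66, 6.47 and 6.79 in watered wild type, 6.38, 6.59 and 6.59 in stressed wild type, 7.51, 7.37 and 7.64 in watered PSARK::IPT and 8.97, 8.18 and 8.95 in stressed PSARK::IPT. Wild-type arrays overlapped, and stressed PSARK::IPT lay above all others (difference 1.32, SE 0.30). Cyt-RPEase, the cytosolic ribulose-phosphate epimerase, read 7.42, 6.92 and 7.54, then 6.57, 5.82 and 6.41 in wild type, and 8.41, 8.29 and 8.71, then 8.81, 8.80 and 8.87 in PSARK::IPT, watered before stressed. Its groups did not overlap in either genotype, the difference was 1.38 (SE 0.32), and a second probe set gave 0.78. FNR, ferredoxin-NADP reductase, averaged 8.20 ± 0.03 and 7.33 ± 0.11 in wild type without overlap, while the PSARK::IPT groups, at 8.77 ± 0.26 and 8.80 ± 0.09, overlapped (difference 0.90, SE 0.22). A second probe set of FNR gave 1.16. OsUAH, a ureidoglycolate amidohydrolase of purine breakdown, averaged 6.96 ± 0.14 and 6.39 ± 0.10 in wild type and 7.53 ± 0.12 and 7.80 ± 0.13 in PSARK::IPT (difference 0.83, SE 0.21). NADP-ME2, an NADP-malic enzyme, had a difference of 0.81 and means of 10.15 and 9.89 in wild type and 10.30 and 10.85 in PSARK::IPT.

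RNA-related genes included oRrp46, a subunit of the RNA-degrading exosome, and zinc finger proteins of the CCCH class. The oRrp46 probe set read 5.77, 5.46 and 6.26 in watered wild type, 5.01, 4.83 and 5.13 in stressed wild type, 6.00, 5.88 and 6.16 in watered PSARK::IPT and 6.46, 6.28 and 6.41 in stressed PSARK::IPT. Neither genotype's groups overlapped (difference 1.21, SE 0.28). OsC3H50 averaged 6.94 ± 0.19 and 6.18 ± 0.17 in wild type and 6.97 ± 0.12 and 7.19 ± 0.20 in PSARK::IPT (difference 0.99, SE 0.24). OsC3H17, OsC3H18 and OsC3H19, picked out after their values were seen, had differences of 0.81, 0.84 and 0.83. For OsC3H18, 2 other probe sets gave 0.31 and 0.74. Of 36 tested genes named OsC3H, 34 had a positive difference (81.5% of all genes) and 10 a positive one at an unadjusted p under 0.05 (15.5% of all genes), with a median of 0.52. The family was chosen after its members were seen in the ranking, so nothing particular to it follows. GUT1 completed the 12 named genes, at 6.93 ± 0.31, 6.31 ± 0.22, 6.67 ± 0.07 and 7.21 ± 0.28 in watered wild type, stressed wild type, watered PSARK::IPT and stressed PSARK::IPT (difference 1.16, SE 0.29).

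**Figure D4:**
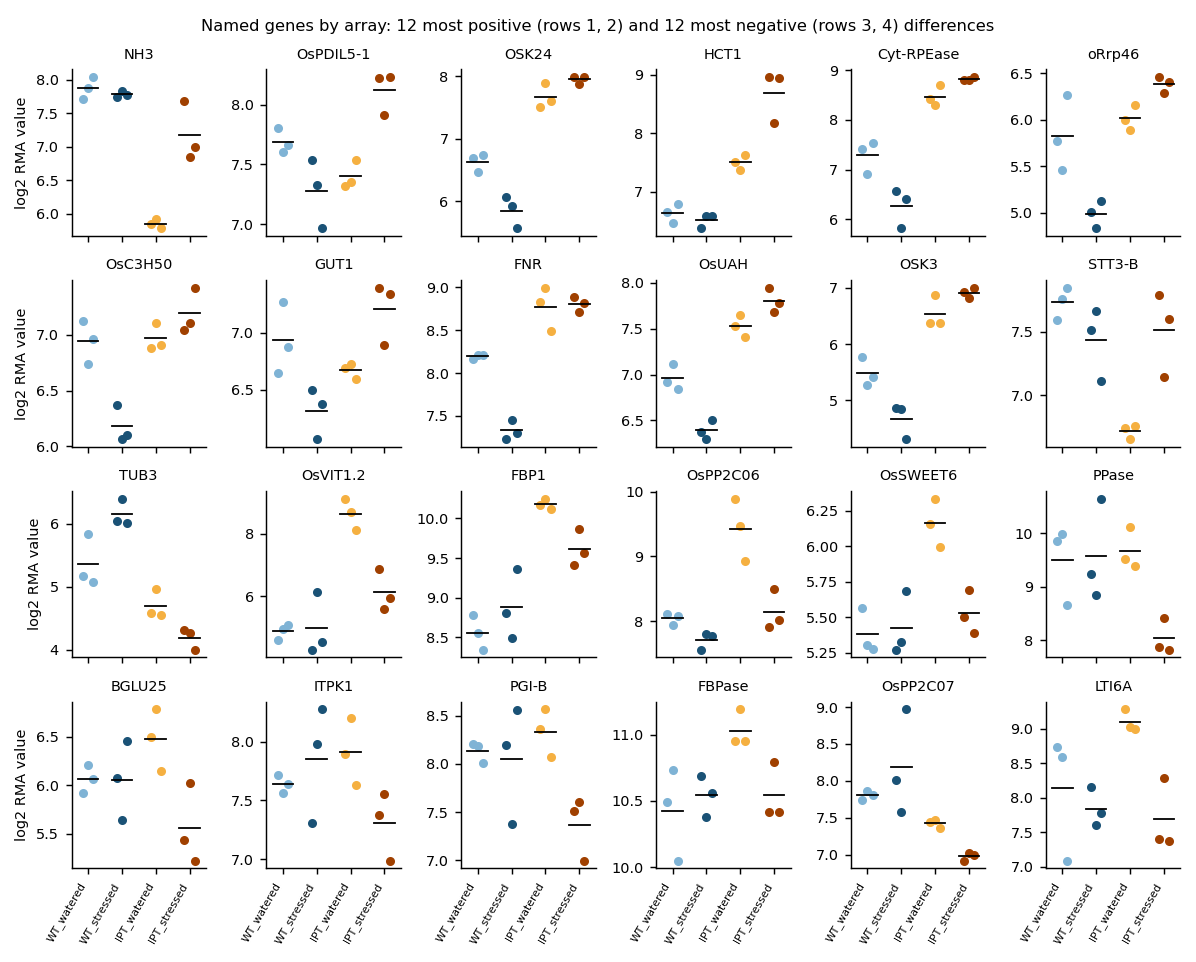
Log2 RMA value of each array (points) and group mean (line) for named genes. The upper 2 rows of panels show the 12 named genes with the most positive statistic. The lower 2 rows show the 12 with the most negative, which are all the named members of the lowest 200. Each panel has its own vertical scale. OSK24 and OsPDIL5-1 are lowest in stressed wild type, whereas OsVIT1.2 and OsPP2C06 are highest in watered PSARK::IPT.

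The top ranks belonged to probe sets without a protein name. Os.47549.1.A1_s_at, tied to no gene here, averaged 5.89 ± 0.15, 5.17 ± 0.17, 5.42 ± 0.04 and 6.32 ± 0.29 in watered wild type, stressed wild type, watered PSARK::IPT and stressed PSARK::IPT, a difference of 1.62 (SE 0.25). LOC4334614 had the largest difference of the highest 200, 2.08 (SE 0.35), from 6.47 ± 0.38 to 5.84 ± 0.23 in wild type and from 5.04 ± 0.29 to 6.50 ± 0.35 in PSARK::IPT. LOC4333495 had 1.53 (SE 0.28) and did not overlap in either genotype. LOC4349384, singled out after its values were seen, read 6.82, 7.60 and 7.22 in watered and 8.96, 7.95 and 9.23 in stressed PSARK::IPT, with wild type at 6.45 ± 0.12 and 6.01 ± 0.23 (difference 1.93, SE 0.43).

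The other named members of the highest 200 covered several functions. APRL2, an adenylylsulfate reductase-like protein, had a difference of 1.26 and group means of 5.23, 4.78, 6.14 and 6.96 in watered wild type, stressed wild type, watered PSARK::IPT and stressed PSARK::IPT. In the same order DBB1, a double B-box zinc finger protein, had 1.08 from 5.34, 4.29, 5.73 and 5.76. For 4CLL4, a 4-coumarate-CoA ligase-like enzyme, the difference was 0.88 from 6.65, 6.14, 6.99 and 7.35. COQ5, a methyltransferase of ubiquinone synthesis, had 0.86 from 6.39, 5.70, 6.70 and 6.87. FACE-1, a protease that processes prenylated proteins, had 0.88 from 7.41, 7.01, 6.41 and 6.89. The coatomer subunit gene copz1 had 0.69 from 7.57, 7.17, 7.64 and 7.93, and OsTrx01 had 1.35 from 5.61, 4.82, 5.98 and 6.55. In all 7 stressed wild type was below watered wild type and stressed PSARK::IPT above watered PSARK::IPT.

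Only 12 of the lowest 200 probe sets had a gene name. The roles given for this end describe those 12 and not the rest of the set. Counted from the bottom, they ranked from 9 for TUB3 to 196 for LTI6A. Unadjusted p-values in limma were 0.052 for FBPase, 0.056 for OsPP2C07 and 0.070 for LTI6A. FBP1, the cytosolic fructose-1,6-bisphosphatase of sucrose synthesis, read 8.78, 8.55 and 8.34 in watered wild type and 8.80, 8.49 and 9.37 in stressed wild type. In PSARK::IPT it read 10.17, 10.25 and 10.12 watered and 9.41, 9.87 and 9.56 stressed. Wild-type groups overlapped and PSARK::IPT groups did not; the difference was −0.90 (SE 0.32), and a second probe set gave −0.20. Another fructose-1,6-bisphosphatase gene, annotated FBPase, averaged 10.42 ± 0.34 and 10.54 ± 0.16 in wild type and 11.03 ± 0.14 and 10.55 ± 0.21 in PSARK::IPT (difference −0.60, SE 0.28). A second probe set of FBPase gave −0.21.

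PGI-B, a glucose-6-phosphate isomerase, averaged 8.13 ± 0.10 and 8.05 ± 0.60 in wild type and 8.33 ± 0.25 and 7.37 ± 0.33 in PSARK::IPT, and its PSARK::IPT arrays did not overlap (difference −0.88, SE 0.40). PPase, an inorganic pyrophosphatase, read 9.85, 9.99 and 8.66, then 9.24, 8.84 and 10.65 in wild type, and 9.53, 10.11 and 9.38, then 7.87, 8.42 and 7.82 in PSARK::IPT, watered before stressed. Wild type spread over both groups without order, and only stressed PSARK::IPT stood apart (difference −1.71, SE 0.65). Without stressed wild-type replicate 3 the differences of PPase, FBP1 and PGI-B were −1.17, −0.66 and −0.62. Without replicate 2 of that group they were −2.08, −1.09 and −1.21. OsSWEET6, a sugar transporter, was higher in watered PSARK::IPT, at 6.16 ± 0.17, than in the other groups, at 5.38 ± 0.16 in watered wild type, 5.43 ± 0.22 in stressed wild type and 5.53 ± 0.15 in stressed PSARK::IPT. Its difference was −0.68 (SE 0.24), and BGLU25, a beta-glucosidase, had one of −0.90 (SE 0.37).

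Protein phosphatases 2C, the class that holds the negative regulators of abscisic acid signalling, were counted after their values were seen, so nothing particular to the family follows. Of 41 tested genes so named, 31 had a positive difference (81.5% of all genes), with a median of 0.19 (0.34 over all genes). At an unadjusted p under 0.05, 4 were positive and 1 negative (15.5% and 0.303% of all genes). The lowest 200 held 2 of them and the highest 0, where these ends held 60 and 166 of the 10547 genes. OsPP2C06 read 8.10, 7.94 and 8.08 in watered wild type, 7.55, 7.80 and 7.76 in stressed wild type, 9.89, 9.47 and 8.92 in watered PSARK::IPT and 7.91, 8.50 and 8.01 in stressed PSARK::IPT. Both genotypes had lower stressed arrays with no overlap, by −0.33 and −1.28 (difference −0.95, SE 0.34). OsPP2C07 averaged 7.80 ± 0.06 and 8.18 ± 0.71 in wild type and 7.42 ± 0.05 and 6.98 ± 0.05 in PSARK::IPT; stressed wild-type replicate 3 read 8.97 against 8.01 and 7.58 for the other two. Its difference of −0.83 (SE 0.39) was −0.43 without that array, and a second probe set of OsPP2C07 gave −0.46. In contrast OsPP2C66 had a difference of 0.83 (SE 0.24), from 5.54 ± 0.16 to 4.76 ± 0.30 in wild type and from 6.30 ± 0.06 to 6.36 ± 0.08 in PSARK::IPT. ITPK1, an inositol trisphosphate kinase, had −0.82 (SE 0.36), and LTI6A, a small membrane protein named for induction by cold, had −1.11 (SE 0.56), which was −0.59 without watered wild-type replicate 3.

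OsVIT1.2, a vacuolar iron transporter, had the most negative difference of the 12 named genes. It read 4.61, 4.96 and 5.08 in watered wild type, 4.29, 6.14 and 4.56 in stressed wild type, 9.13, 8.69 and 8.13 in watered PSARK::IPT and 6.89, 5.61 and 5.96 in stressed PSARK::IPT. Watered PSARK::IPT lay above all other arrays, and the stress effects were 0.12 and −2.50 (difference −2.62, SE 0.66). TUB3, a beta-tubulin, was the named gene with the smallest p at this end. Its arrays read 5.18, 5.84 and 5.08 in watered wild type, 6.05, 6.40 and 6.02 in stressed wild type, 4.59, 4.96 and 4.55 in watered PSARK::IPT and 4.31, 4.27 and 4.0 in stressed PSARK::IPT. The groups did not overlap in either genotype and the difference was −1.30 (SE 0.31), but 2 other probe sets of the gene gave 0.10 and 0.18.

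The lowest ranks were again probe sets without a name. OsAffx.26091.1.A1_at averaged 7.18 ± 0.10, 8.01 ± 0.12, 6.38 ± 0.18 and 5.96 ± 0.12 in watered wild type, stressed wild type, watered PSARK::IPT and stressed PSARK::IPT (difference −1.24, SE 0.21). OsAffx.30702.1.S1_at had −1.04 (SE 0.21) and Os.42298.1.S1_x_at had −0.86 (SE 0.19), both with no overlap in either genotype. The most negative values of all, looked up after the ranking, belonged to Os.11707.1.A1_at at −3.25 (SE 1.55), which was −2.14 without stressed wild-type replicate 3, and to both probe sets of LOC4332796 at −3.22 and −3.09. Their arrays varied within groups: LOC4332796 read 7.05, 3.98 and 3.90 in watered wild type and 6.82, 5.47 and 4.49 in stressed PSARK::IPT, and both genotypes' groups overlapped.

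Genes were then counted by function over 46 lists of names, 45 of which had tested members, with 602 genes in all. Only 1563 of the 10547 tested genes had a name, so a list can lack tested members of its family. None of the listed genes was called in any list. Over all 10547 genes the median difference was 0.34, 81.5% of the genes had a positive difference and 15.5% a positive one at an unadjusted p under 0.05, so counts are read against those shares and a list median is read against that value, and against 0 after the arrays were given equal medians, which lowered every median by 0.36. With equal medians 28 of the 45 list medians were negative, against 5 as deposited. Single arrays also moved them: leaving out 1 array turned the sign of 8 of the 45 medians, and turned or moved 30 of them by over 1.5 times.

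Of the lists with 5 or more genes, the one of cytosolic ribosomal proteins had the highest median. Of 24 cytosolic ribosomal protein genes 23 had a positive difference, 23 lay above the median of all genes and 5 had an unadjusted p under 0.05. Their median difference was 0.84 as deposited, 0.48 with equal array medians and 0.71 with quantile normalization. It ranged from 0.55 without stressed wild-type replicate 3 to 1.08 without watered wild-type replicate 2, and the median stress effects were −0.13 in wild type and 0.68 in PSARK::IPT. The members ranged from −0.04 for RPL27 to 1.15 for RPL11. RPS7, a protein of the small subunit, read 9.46, 9.16 and 9.71 in watered wild type, 9.57, 9.34 and 8.66 in stressed wild type, 9.39, 9.19 and 9.51 in watered PSARK::IPT and 10.07, 9.80 and 9.97 in stressed PSARK::IPT, so stressed PSARK::IPT was above all other arrays (difference 0.84, SE 0.33). None of the 24 was among the highest 200.

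All 8 translation factors were positive (median 0.66, 0.30 with equal medians). Among them eIF-4G, a scaffold of the cap-binding complex, averaged 7.64 ± 0.20, 7.09 ± 0.12, 8.16 ± 0.01 and 8.32 ± 0.17 in watered wild type, stressed wild type, watered PSARK::IPT and stressed PSARK::IPT. Its difference was 0.70, and a second probe set gave 0.52. All 10 genes of protein folding in the endoplasmic reticulum were positive as well (median 0.62, 0.26 with equal medians), but without stressed wild-type replicate 3 their median was 0.29, below that of all genes as deposited. Of 25 heat shock genes 20 were positive and 4 had an unadjusted p under 0.05, close to the shares over all genes, with a median of 0.58 (0.23 with equal medians). The heat shock gene with the smallest p, HSF1, averaged 6.40 ± 0.51 and 5.08 ± 0.45 in wild type and 7.42 ± 0.74 and 7.44 ± 0.19 in PSARK::IPT (difference 1.35, SE 0.52).

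**Figure D5:**
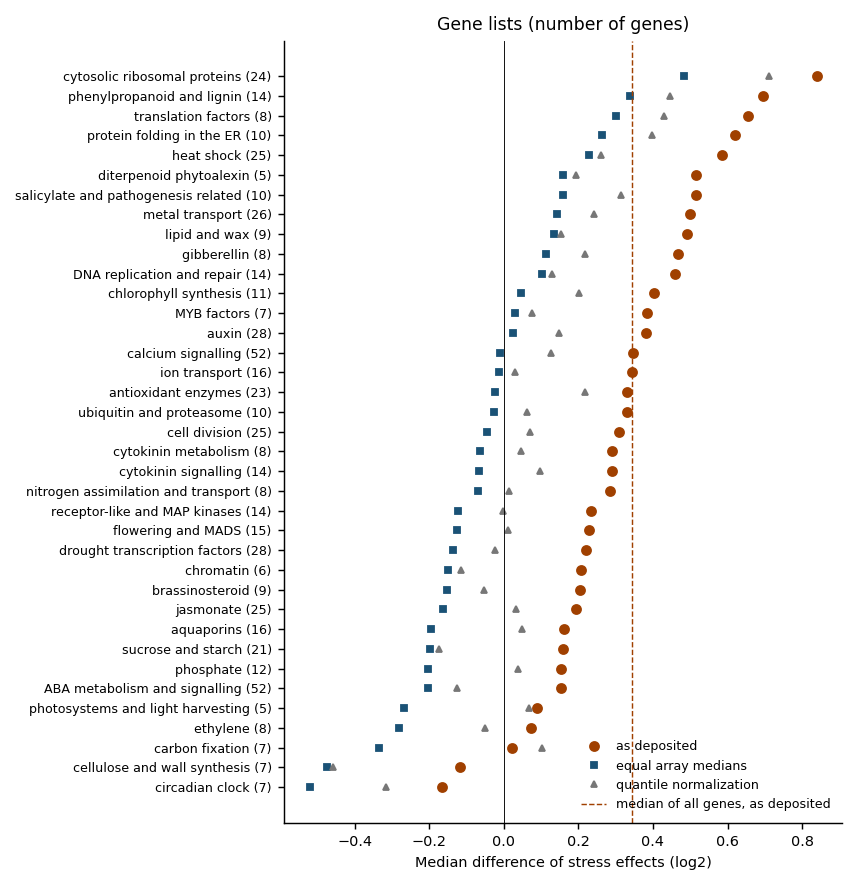
Median difference of stress effects (log2) over the genes of each list with 5 or more tested genes, as deposited (circles), with equal array medians (squares) and with quantile normalization (triangles); the number of genes is in brackets and the dashed line is the median of all 10547 genes. Cytosolic ribosomal proteins are at the top with 0.84, 0.48 and 0.71, and circadian clock genes at the bottom with −0.16 as deposited.

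Among 14 genes of phenylpropanoid and lignin synthesis 10 were positive and 3 had an unadjusted p under 0.05, with a median of 0.69 (0.34 with equal medians) and a range from −1.67 for CHS, chalcone synthase, to 1.88 for PAL, phenylalanine ammonia-lyase. HCT1 and 4CLL4 were among the highest 200. Of 10 salicylate and pathogenesis-related genes 8 were positive, with a median of 0.51. Metal transport had 26 genes with a median of 0.50, 23 of them positive, and contained the strongly negative OsVIT1.2.

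Cytokinin and abscisic acid lists came next. The 8 genes of cytokinin synthesis, activation and breakdown had a median of 0.29, which was −0.06 with equal medians, 0.07 without stressed wild-type replicate 3 and 0.48 without watered wild-type replicate 1. LOGL9, a LONELY GUY-type enzyme that activates cytokinins, read 3.80, 4.78 and 5.59 in watered wild type, 3.73, 4.24 and 5.16 in stressed wild type, 5.31, 4.78 and 5.14 in watered PSARK::IPT and 7.05, 5.54 and 6.63 in stressed PSARK::IPT. The wild-type groups overlapped and the PSARK::IPT groups did not (difference 1.68, SE 0.71). Of 14 cytokinin signalling genes 13 were positive, with a median of 0.29 (−0.07 with equal medians, 0.53 without watered PSARK::IPT replicate 3), and OHP1, a phosphotransfer protein, averaged 6.06 ± 0.33, 5.07 ± 0.29, 7.01 ± 0.32 and 7.03 ± 0.14 in watered wild type, stressed wild type, watered PSARK::IPT and stressed PSARK::IPT. The 52 genes of abscisic acid metabolism and signalling had a median of 0.15 (−0.20 with equal medians, between 0.08 and 0.24 with single arrays of watered PSARK::IPT left out); 36 were positive, 4 were positive and 1 negative at an unadjusted p under 0.05, and OsPP2C06 and OsPP2C07 were in the lowest 200.

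Auxin genes had a median of 0.38 (28 genes, 21 positive), gibberellin genes 0.47 (8 genes, 7 positive), jasmonate genes 0.19 (25 genes, 21 positive), brassinosteroid genes 0.20 (9 genes, 8 positive) and ethylene genes 0.07 (8 genes, 5 positive). With equal medians the auxin and gibberellin medians were 0.03 and 0.11 and the other three were negative. Their genes with the smallest p were ARF9 above, JAZ3, a jasmonate repressor, at 0.85 (SE 0.33), GSK2, a brassinosteroid-pathway kinase, at 0.91 (SE 0.35) and ETR3, an ethylene receptor, at 0.55 (SE 0.21). With equal medians ARF9, JAZ3, GSK2 and ETR3 were at 0.68, 0.49, 0.56 and 0.19. No gibberellin gene had an unadjusted p under 0.05.

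Stress regulators and protective genes were mixed. Of 28 drought transcription factors 20 were positive (median 0.22), and BZIP60 averaged 5.58 ± 0.46 and 4.83 ± 0.42 in wild type and 6.86 ± 0.26 and 7.25 ± 0.15 in PSARK::IPT (difference 1.15, SE 0.38). NAC071, also listed as OsNAC5, averaged 7.14 ± 0.44 and 6.07 ± 0.47 in wild type and 8.26 ± 0.53 and 8.44 ± 0.16 in PSARK::IPT (difference 1.24, SE 0.45), while the other two NAC genes were negative. MYBAS1 had 2.13 (SE 0.93), with stressed wild-type arrays at 5.30, 6.44 and 3.61, and overlapped in both genotypes; without the third of these arrays the difference was 1.38. The antioxidant list had 23 genes, 19 positive, with a median of 0.33, and APX5, an ascorbate peroxidase, averaged 6.33 ± 0.37 and 5.24 ± 0.47 in wild type and 6.09 ± 0.06 and 6.18 ± 0.12 in PSARK::IPT (difference 1.19, SE 0.34). Dhn1, the only tested gene matched by name to the dehydrin list, had −0.53, with stress effects of −0.83 in wild type and −1.35 in PSARK::IPT. Of 52 calcium signalling genes 42 were positive and 7 had an unadjusted p under 0.05, about the shares over all genes, with a median of 0.35 (−0.01 with equal medians).

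Photosynthesis and circadian clock lists were among those with the lowest medians as deposited. The 5 genes of photosystems and light harvesting had a median of 0.09 (−0.27 with equal medians, 0.07 with quantile normalization). Over all tested probe sets quantile normalization gave a median of 0.06. Group medians of the 5 lay between 12.04 and 12.39, and probe sets with a mean of 10 or more had a median difference of 0.15. Stress effects of the list were near 0 in both genotypes (medians 0.03 and 0.04). Its median difference was −0.10 without watered PSARK::IPT replicate 2. The 7 genes matched by name to the carbon fixation list had a median of 0.02 (−0.33 with equal medians, 0.10 with quantile normalization). Of these, 2 were in the lowest 200 and 1 in the highest. The extremes, FBP1 at −0.90 and Cyt-RPEase at 1.38, are the cytosolic enzymes described above, and 1 of the 7, matched as RPE1, is also KAO of the gibberellin list. The list is therefore not limited to carbon fixation. Its median ranged from −0.14 without watered PSARK::IPT replicate 2 to 0.16 without watered wild-type replicate 2. The median of 11 chlorophyll synthesis genes was 0.40 and that of 4 chlorophyll breakdown genes −0.02, with ranges of 0.13 to 0.87 and −0.35 to 0.18 as watered PSARK::IPT replicates 2 and 3 were left out. Of 7 circadian clock genes 5 were negative, with a median of −0.16 that was 0.07 without watered PSARK::IPT replicate 2, and their members ranged from −0.35 for GI to 0.19 for CCA1. The 7 cellulose and wall synthesis genes had a median of −0.12, which was −0.51 without watered wild-type replicate 2 and 0.26 without replicate 3 of that group, although CSLH1, a cellulose synthase-like gene, had 1.03 (SE 0.35).

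For growth and transport, 23 of 25 cell division genes and 13 of 14 DNA replication and repair genes were positive, where 81.5% of all genes were, with medians of 0.31 and 0.46 (−0.05 and 0.10 with equal medians). OsRPA70a, the large subunit of the single-strand DNA binding protein, did not overlap in either genotype and had 0.64 (SE 0.22). The 16 aquaporins had a median of 0.16 (−0.07 without stressed wild-type replicate 3), the 21 sucrose and starch genes 0.16 and the 8 nitrogen genes 0.29. AMT2-1, an ammonium transporter, averaged 8.04 ± 0.29 and 8.05 ± 0.04 in watered and stressed wild type. In watered and stressed PSARK::IPT it averaged 7.07 ± 0.45 and 7.97 ± 0.17 (difference 0.89, SE 0.32). Watered PSARK::IPT had the lowest mean, as for NH3 and STT3-B. OsSUS4, a sucrose synthase, had 0.69 (SE 0.29), HAK2, a potassium transporter, 1.31 (SE 0.49) and MPK4, a MAP kinase, 0.74 (SE 0.29). DRM2, a DNA methyltransferase, had 0.56 (SE 0.21), Ehd4, a flowering regulator, 0.75 (SE 0.25) and wsl8 0.61 (SE 0.25). With equal medians these were 0.34, 0.95, 0.38, 0.20, 0.40 and 0.25 in the same order.

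Membership of the highest 200 depended on single arrays. Without stressed wild-type replicate 1 the new highest 200 shared 67 probe sets with the original, without replicate 3 of that group 83, and without stressed PSARK::IPT replicate 3 176. The lowest 200 shared between 118 and 176 probe sets with the original when 1 array was left out. With equal array medians 143 of the highest and 164 of the lowest were retained.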

How the data were processed

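The deposited values are log2 expression values. The submitters' processing notes name RMA, a method that subtracts background, normalizes across arrays and combines the probes of each set. The deposited arrays still differed in median, as given above, and in spread. Over all probe sets, controls and reporters left out, the SD averaged 2.06 and 1.95 in watered and stressed wild type. In watered and stressed PSARK::IPT it averaged 2.18 and 2.21. The values were used as deposited. Probe sets with a mean of 5 or more, controls and reporters left out, were fitted with limma 3.58.1 in R 4.3.3 (lmFit, eBayes), 1 mean per group over 12 arrays. P-values were adjusted by Benjamini-Hochberg over all 15303. The step was tested on simulated data, where it called 3 of 50 added differences of size 1 and 40 of 50 of size 2. It made 4 false calls. The absence of calls therefore does not show that differences near 1 were absent. SE is limma's moderated standard error, and SD is over 3 arrays, whose number limits the precision.

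The platform annotation, updated through the RefSeq gene table, tied 11790 probe sets to 1 gene, 57 to several and 3456 to none listed. Sets ending in _x_at or _s_at can match several sequences. For gene counts the set with the highest mean stood for its gene. Members, lists and tests were chosen with earlier results of these data known. Lists were matched by symbol stems, and 53 names of other protein families were dropped. Named genes were the 12 named genes and 3 probe sets at each end and, per list of 3 or more genes, the gene with the smallest unadjusted p if under 0.05. Alternatives were other minimum means and array scalings, a GAPDH covariate, array weights, limma's trend and robust options, the replicate block and leaving out each array.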

Additional observations from a re-analysis of the deposited data

Results flagged for a closer look

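Probe sets outside the comparisons carried signal. The K01193 reporter read 8.98 in stressed wild type and 10.16 in stressed PSARK::IPT, above the background levels of 4.10 and 3.34 set by 106 probe sets for foreign sequences, the reporters among them. The AF292559 reporter read 7.68 and 7.97 in the same groups. In watered leaves both group means of PSARK::IPT were below background, and watered wild-type replicate 3 alone read 6.03 for K01193.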

How the results depend on the processing

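No probe set was called under 20 of the 21 alternatives. Array weights, which ranged from 0.138 for stressed wild-type replicate 3 to 11.7 for watered PSARK::IPT replicate 1, called 170 probe sets (160 positive, 10 negative) and 112 genes, with adjusted p-values from 0.0447 to 0.0498; 21 of the 61 named probe sets were among them, and the cause was not tested. The median difference was −0.066 with no minimum mean, where 0 of 57194 were called, −0.032 with equal array medians, 0.060 with quantile normalization and −0.020 with equal medians and spreads, all shifts that the scaling itself makes or that come from the dim probe sets added. Leaving out each array gave 0 calls in all 12 fits, smallest adjusted p-values from 0.069 to 0.574, medians from 0.29 to 0.34 and 1240 to 3007 probe sets at an unadjusted p under 0.05. The replicate block gave 0 calls, a smallest adjusted p of 0.284 and 2463 at an unadjusted p under 0.05. Replicate numbers were not taken as pairs: same-numbered arrays correlated between −0.12 and 0.33, median 0.11, against −0.02 for other pairs, with 9 of 18 over 0.1 and the best match by own number in 27 of 36 comparisons, a hint from the data, not from the design. Of 45 list medians, 14 were negative with quantile normalization and 24 with equal medians and spreads.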
